A study of Mus musculus with 6 samples.

Results

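The 6 genes described here, Tfrc, Tal1, Abcb10, Icam4, Cd24a and Cd59b, were listed as erythroid precursor genes. They stood among 561 genes counted in spleen cells of estrogen-exposed mice. They were chosen by name, with measured values known, because they stood higher in both estrogen groups than in placebo. Their levels against placebo are therefore a description, and no test is drawn from them. The table listed them under the RefSeq identifiers NM_011638.3, NM_011527.2, NM_019552.2, NM_023892.2, NM_009846.2 and NM_181858.1, and all 6 were found. Genes averaging under 20 counts were set aside, which left 457 of the 561 for testing, all 6 members among them. Cd59b, with a mean of 20.5 counts, passed only through the estrogen groups, where it averaged 26.5.

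The study used female mice of the NZB/WF1 strain, a hybrid that develops a lupus-like disease. At 6 to 7 weeks of age they received an implant that held 17-beta estradiol (E2), the natural estrogen, an implant that held 17alpha-ethinyl estradiol (EE), a synthetic estrogen, or an empty implant as placebo. Splenocytes, the cells isolated from spleen, were taken after 9 weeks, and their total RNA was counted with an immunology panel on the NanoString nCounter, in which colour-coded probes bind RNA and are counted without amplification. Each group held 2 samples, E2 replicates 1 and 2, EE replicates 11 and 14, and placebo replicates 22 and 26. The labels tie no sample to an animal, so the spread behind the p-values may be technical. In the main fit that spread was pooled over the panel, and a gene's own samples hardly entered its p-value. The sources used here state no implant dose, and whether E2 and EE were matched in dose is not known.

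Erythroid precursors are the dividing cells that give rise to red blood cells, and in mice the spleen as well as the bone marrow can host them. They take up iron bound to transferrin, build haem in their mitochondria and follow a programme of transcription factors in which Tal1 works with Gata1 and Klf1. During their maturation they sit on macrophages in erythroblastic islands, held by adhesion molecules.

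The cell type named by these genes could not be checked against its defining markers. Of 33 further erythroid and haem genes listed, only Cd36 and Alas1 were named on the panel, and Gata1, Klf1, Epor, Alas2 and the haemoglobin genes were not among the named genes. The members also have other sources, since Cd24a is carried by B cells and granulocytes, Tfrc by dividing cells in general and Tal1 by megakaryocytes. In bulk RNA, more cells of a type and more RNA per cell cannot be told apart.

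Promoter sequence was examined because the members stood higher together, and GATA motifs, bound by the factor that partners Tal1, are typical of erythroid genes. RefSeq windows of assembly GRCm38.p6, from 250 bases before to 50 after a transcription start, existed for 5 of the members, with 7 windows in all. Cd24a had none, while Tal1 and Tfrc had 2 each, and those of Tfrc overlap. The GATA motif was searched as AGATAA or AGATAG, and as TGATAA or TGATAG, on both strands. It was found in 2 of the 7 windows and in 29.8% of all 32851 promoter windows. A window of Tal1 and that of Icam4 are shown, since they hold it, with the motif in capitals (read here on the opposite strand). The other Tal1 window held 0 matches. The Tal1 window shown is chr4:115056176-115056475 on the plus strand, with the motif starting 205 bases before the start site, and the Icam4 window is chr9:21029182-21029481 on the plus strand, with the motif 43 bases before it.
Tal1: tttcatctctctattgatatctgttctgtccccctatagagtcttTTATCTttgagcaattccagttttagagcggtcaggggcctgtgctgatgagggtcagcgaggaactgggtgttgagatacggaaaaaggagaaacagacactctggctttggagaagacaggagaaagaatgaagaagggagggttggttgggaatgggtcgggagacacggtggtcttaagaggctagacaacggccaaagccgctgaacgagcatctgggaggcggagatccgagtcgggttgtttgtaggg
Icam4: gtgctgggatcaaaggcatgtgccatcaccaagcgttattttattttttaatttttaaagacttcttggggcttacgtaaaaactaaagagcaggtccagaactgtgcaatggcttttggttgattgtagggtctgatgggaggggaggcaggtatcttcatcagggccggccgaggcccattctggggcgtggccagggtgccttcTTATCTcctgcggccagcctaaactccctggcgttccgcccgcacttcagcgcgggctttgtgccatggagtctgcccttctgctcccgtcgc
No base of these GATA matches lay in a match of the other motifs searched. An E-box (CANNTG), the kind of site that Tal1 binds with its partners, was in 4 of the 7 windows and in 72.3% of all windows. The CACCC box that Klf factors bind (CCNCNCCC, both strands) was in 5 of the 7 and in 49.5% of all. The full palindrome of the estrogen response element was in 0 of the 7 and in 23 of all 32851 windows, and a single arm of it (AGGTCA) was in 0 of the 7 and in 16.3% of all. Both were searched on both strands, and a full palindrome preceded by A contains the single arm. A match describes letters in a short window and shows no binding.

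Between 646299 and 863942 gene counts were recorded in a sample. The background, the mean plus 2 SD of the spiked-in negative controls, lay between 10.1 and 13.7 counts. The geometric mean of the 12 named reference genes ran from 1117 to 1184.8. The deposited counts may therefore already be on a reference-gene scale, though the sources used here do not state it. Fold changes below use that scale. The reference genes were not all level on it. Against placebo, 2 were called higher and 4 lower in E2, and 3 higher and 3 lower in EE (11 and 10 higher with TMM). On the reference-gene scale, the median of all 457 genes was -0.62 (log2) in E2 against placebo and -0.75 in EE against placebo. Trimmed-mean (TMM) scaling, which centres the panel on its typical gene, raised every fold change by about 0.63 and 0.75 in those comparisons and by 0.13 in EE against E2. Fold changes are log2 values from edgeR with their standard error (SE), n = 2 samples per group, and counts are as deposited. Probes differ in efficiency, so levels are compared between samples and not between genes.

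Tal1 encodes the transcription factor that specifies blood cells and drives red cell development. It was counted 275 and 189 times in the placebo samples, 1521 and 1652 times in the E2 samples and 2342 and 2224 times in the EE samples. The 3 groups were separate, with placebo lowest and EE highest. The log2 fold change over placebo was 2.71 ± 0.15 for E2 and 3.23 ± 0.16 for EE, or 6.56-fold and 9.41-fold. With TMM scaling it was 3.34 ± 0.18 and 3.98 ± 0.18.

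Of the genes of iron uptake and haem synthesis, Tfrc encodes the transferrin receptor, through which erythroid cells import iron. Its counts were 2304 and 1810 in placebo, 12165 and 12323 in E2 and 14368 and 14188 in EE. Within each estrogen group the samples differed by a ratio of only 1.01, the closest agreement among the 6 genes. Its log2 fold change over placebo was 2.51 ± 0.15 for E2 and 2.73 ± 0.15 for EE, or 5.71-fold and 6.64-fold.
Abcb10 encodes a transporter of the mitochondrial inner membrane that erythroid cells use for haem synthesis. Its counts were 233 and 208 in placebo, 979 and 1117 in E2 and 1586 and 1427 in EE. The placebo samples of this gene were close to each other, and the groups did not overlap. The log2 fold change over placebo was 2.19 ± 0.16 for E2 and 2.71 ± 0.16 for EE, or 4.55-fold and 6.53-fold.

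Of the surface molecules, Icam4 encodes an adhesion molecule of red cells and their precursors that binds integrins on neighbouring macrophages. Its counts were 97 and 52 in placebo, 585 and 556 in E2 and 891 and 745 in EE. The placebo samples differed from each other by a ratio of 1.82, against 1.06 in E2 and 1.19 in EE. The log2 fold change over placebo was 2.88 ± 0.19 for E2 and 3.39 ± 0.19 for EE, or 7.34-fold and 10.5-fold, the largest of the 6 genes in both comparisons.
Cd24a encodes a small lipid-anchored surface protein, long used as a marker of erythroid precursors and also of B cells and granulocytes. Its counts were 6658 and 4982 in placebo, 18642 and 19953 in E2 and 28163 and 27017 in EE. The groups again stood apart in the same order. The log2 fold change over placebo was 1.67 ± 0.15 for E2 and 2.18 ± 0.15 for EE, or 3.18-fold and 4.54-fold.
Cd59b encodes a membrane inhibitor of the terminal complement complex and is a close copy of Cd59a, whose transcript its probe may also count. Its counts were 11 and 6 in placebo, 17 and 31 in E2 and 25 and 33 in EE. Both placebo counts lay within the background of their samples, so 4 of the 6 samples measured the gene, and E2 and EE overlapped. The fitted log2 values over placebo were 1.42 ± 0.47 for E2 and 1.69 ± 0.45 for EE, whose size is uncertain because the placebo counts are at background. Subtracting the mean of the negative controls moved them to 2.73 and 2.98.

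**Figure D1:**
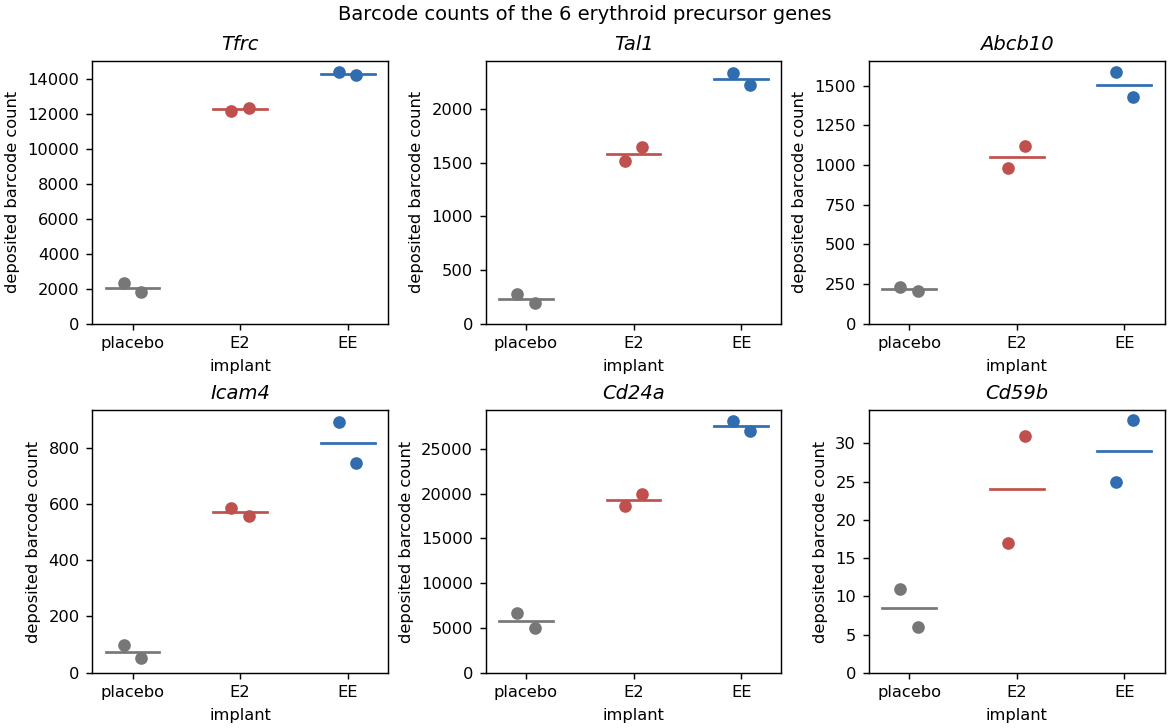
Deposited barcode counts (y axis, linear from 0) of each gene by implant (x axis), with a point per sample and a line at the group mean of 2 samples. Placebo lay below both estrogen groups in every panel, and only for Cd59b did E2 (17 and 31) overlap EE (25 and 33).

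Both E2 samples and both EE samples lay above both placebo samples for all 6 genes, which were chosen for standing higher in both estrogen groups. Among the 457 genes tested, 15.8% were separated upward in this way in E2 and 17.9% in EE (86.4% and 89.5% in either direction). By adjusted p, edgeR called 74.4% of all genes in E2 against placebo and 80.3% in EE against placebo. By log2 fold change in E2 against placebo, Icam4, Tal1, Tfrc, Abcb10 and Cd24a held ranks 8, 9, 10, 12 and 17 of 457. In EE against placebo the same genes held ranks 4, 6, 8, 9 and 15, and Cd59b is given no rank because its placebo counts were at background. Both comparisons share the placebo samples.

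The comparison of EE with E2 asked whether the synthetic estrogen, which carries an ethynyl group at the 17-alpha carbon, gave another level of these genes than the natural one. This contrast did not choose the genes, although earlier results of these data were known. Tal1, Abcb10, Icam4 and Cd24a were higher in EE, by nearly equal amounts. By edgeR's quasi-likelihood test with Benjamini-Hochberg adjustment over 457 genes, 4 of the 6 members were called higher and 0 lower. Over the panel 5.03% of genes were called higher and 10.9% lower, 16% in all.
For Tal1 the log2 difference was 0.52 ± 0.14 (edgeR adjusted p = 0.0022), a ratio of 1.44 with a 95% interval from 1.19 to 1.73. Abcb10 differed by 0.52 ± 0.14 (edgeR adjusted p = 0.0039). Cd24a differed by 0.51 ± 0.15 (edgeR adjusted p = 0.0065), and Icam4 by 0.52 ± 0.16 (edgeR adjusted p = 0.0125). In each of these 4 genes both EE samples exceeded both E2 samples, as 17.5% of all tested genes did (58.4% were separated in either direction).
Tfrc did not pass, with a log2 difference of 0.22 ± 0.14 (edgeR adjusted p = 0.318) and a 95% interval of the ratio from 0.96 to 1.41, although its EE samples also lay above its E2 samples. Cd59b did not pass either (0.27 ± 0.37, edgeR adjusted p = 0.687), and its interval from 0.73 to 1.99 leaves its direction undetermined at these counts. Whether Tfrc differed from the other members in its response was not tested. On the count scale, E2's increase over placebo amounted to 83.5% of EE's for Tfrc, 66.1% for Tal1, 64.3% for Abcb10, 66.8% for Icam4 and 61.7% for Cd24a.

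These calls rested on few samples, on the scale and on how the spread was estimated. Scaling on the spiked-in positive controls, whose geometric mean was 841.2 and 894.3 in EE against 700.6 and 774.8 in E2, left 0 of the 6 members called and values of 0.28 to 0.29 for the 4 genes called above. The number called was also 0 without E2 replicate 1, without EE replicate 11 or without EE replicate 14, and 3 without E2 replicate 2. With TMM scaling 3 members were called, since Icam4 then had an adjusted p of 0.0576 by edgeR. Its log2 difference was larger than on reference genes, at 0.64 ± 0.19. Tal1 likewise had a larger difference, 0.64 ± 0.15, but a higher adjusted p of 0.0251 by edgeR. The lost call thus did not come with a smaller difference, and its cause was not tested.

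**Figure D2:**
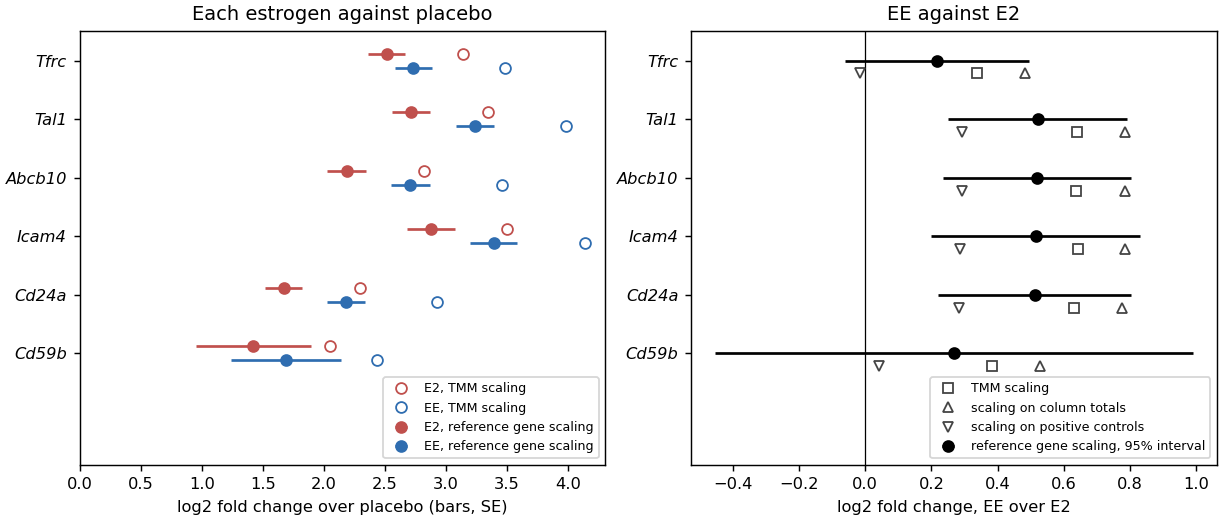
Left, log2 fold change of each gene over placebo (x axis) in E2 (red) and EE (blue), with SE bars, on reference genes (filled) and with TMM (open). Right, log2 fold change of EE over E2 with its 95% interval on reference genes (black) and values under 3 other scalings, where Tal1, Abcb10, Icam4 and Cd24a lie near 0.52 on reference genes and near 0.29 on positive controls.

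Samples within a group also showed a common order of the members. In placebo, replicate 22 was higher than replicate 26 for all 6 genes, by a median of 0.44 on the log2 scale, whereas 36.5% of all tested genes were higher in replicate 22. In EE, replicate 11 was higher for 5 of the 6, all but Cd59b, against 32.2% of all genes. In E2, replicate 1 was higher for 1 of the 6, Icam4, against 77.9% of all genes. This order was not particular to the members. Median log2 levels in placebo replicates 22 and 26 were 0.278 and -0.278 for neutrophil markers and 0.219 and -0.219 for platelet genes. B cell, T cell and NK markers had the other order. Neutrophil markers shared the members' order in E2 (2.097 and 2.382) but not in EE, and platelet genes shared it in EE (2.898 and 2.074) but not in E2. Over the 6 samples each gene's log2 profile correlated with the mean profile of the other 5 at Pearson r between 0.93 (Cd59b) and 0.998 (Tal1), a description in which group differences and shared libraries both take part.

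Among the erythroid and haem genes outside the members, Cd36, a fatty acid receptor of macrophages, platelets and early erythroid cells, was higher under both estrogens. Its counts were 1246 and 1083 in placebo, 2456 and 2326 in E2 and 3116 and 2935 in EE. The log2 fold change was 0.98 ± 0.14 for E2 and 1.31 ± 0.14 for EE over placebo (edgeR adjusted p of at most 3.28e-06 and 5.88e-07 over the 6 scalings run). In EE against E2 it was 0.34 ± 0.14 (edgeR adjusted p = 0.0745, and 0.0196 with TMM).
Alas1, the housekeeping form of the first enzyme of haem synthesis, is one of the reference genes that set the scale. Its counts were 138 and 129 in placebo, 184 and 226 in E2 and 182 and 147 in EE. It was higher in E2 by 0.56 ± 0.20 (edgeR adjusted p = 0.0085), while the value for EE was 0.24 ± 0.20 (edgeR adjusted p = 0.279). The EE value ran from -0.02 to 0.99 over the 6 scalings and was called higher under 3 of them, TMM included (edgeR adjusted p = 0.0025).

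The genes listed for erythropoietin and stem cell factor signalling were, as a set, not higher with the members. Beside genes that pass the signal on, the list holds its inhibitors Socs1, Socs3 and Ptpn6, and Btk, which is also in the B cell list. Counts of lower genes therefore do not measure a loss of the signal. Of 9 tested, 8 were lower and 0 higher in each estrogen group against placebo, where 62.6% (E2) and 65.9% (EE) of all genes were lower and 11.8% and 14.4% higher. Their median was -0.65 in E2 and -0.81 in EE, close to the panel's -0.62 and -0.75. With TMM the medians were -0.03 and -0.06, with 2 lower and 1 higher in E2 and 3 lower and 1 higher in EE. Of all 457 genes, 104 were then lower and 134 higher in E2, and 123 and 136 in EE. Jak2, the kinase of the erythropoietin receptor, named after its values were seen, was at -0.63 in E2 and -0.71 in EE, and its sign turned under some scalings (up to 0.004 and 0.05). Stat5b, a transcription factor downstream of it, was at -0.85 and -1.12 (-0.22 and -0.36 with TMM, where the E2 value did not pass). Kit, the stem cell factor receptor of early precursors, was the gene of the 9 that passed in neither comparison, at 0.19 and 0.17, with counts from 38 to 51 (0.82 and 0.92 with TMM, where it was called higher). In EE against E2, 0 of the 9 passed by edgeR (0 at an unadjusted p under 0.05 and 0 with TMM), with a median of -0.10.

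Of 17 listed partners of Tal1 and progenitor transcription factors, 8 were named on the panel and tested. They were Tcf4, Runx1, Gfi1, Cebpb and the Ikaros family genes Ikzf1, Ikzf2, Ikzf3 and Ikzf4. Gata1, Gata2, Lmo2, Ldb1, Tcf3 and Tcf12 were not among the named genes, so most of the listed partners of Tal1 could not be examined. In E2, 6 were lower and 0 higher than in placebo, and in EE 8 were lower, against 62.6% and 65.9% of all genes lower. With TMM 4 and 3 were lower. Of all 457 genes, 104 and 123 were then lower, and 134 and 136 higher. The medians of the listed genes were -0.83 and -0.99, against -0.62 and -0.75 over all genes (-0.20 and -0.24 with TMM). Runx1, a factor of blood stem cells and platelet precursors, was at -0.95 in E2 and -1.04 in EE, and Ikzf1, the lymphoid factor Ikaros, at -0.96 and -1.16, both lower under all 6 scalings. In EE against E2, 0 of the 8 passed by edgeR (2 at an unadjusted p under 0.05 and 0 with TMM), and Tcf4, an E-protein of the family that pairs with Tal1, was at -0.37 ± 0.14 (edgeR adjusted p = 0.0595). Of the 4 tested progenitor markers, 1 was higher and 1 lower (Runx1) in E2, and 1 was higher and 2 lower (Runx1 and Gfi1) in EE, with medians of -0.13 and -0.32 (0.50 and 0.44 with TMM, with 2 higher and 1 lower in each). The higher one was Cd34, a surface protein of blood progenitors, at 1.10 in E2 and 0.91 in EE, on counts of 21 and 20 in placebo, 47 and 45 in E2 and 46 and 35 in EE, and under 5 of 6 scalings for EE.

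The list of integrins and their partners in erythroblast adhesion held 10 tested genes. Against placebo, 1 was higher and 6 lower in E2, and 2 were higher and 5 lower in EE. These counts were near the shares of all genes, of which 62.6% and 65.9% were lower. With TMM 4 were higher and 2 lower in E2, and 5 higher and 2 lower in EE. Of all 457 genes, 134 were then higher and 104 lower in E2, and 136 and 123 in EE. Vcam1, which island macrophages display to erythroblasts, had 2405 and 2239 counts in placebo, 2337 and 2203 in E2 and 3459 and 3918 in EE. It was higher in EE than in E2 by 0.70 ± 0.14 (edgeR adjusted p = 9.72e-06, and at most 0.0483 over the 6 scalings run). Itga4, the integrin chain that binds Vcam1, named after its values were seen, was at -0.57 in E2 and -0.76 in EE against placebo, and at 0.05 and -0.01 with TMM. Cd55, the other complement regulator tested beside Cd59b, was lower, at -0.86 in E2 and -1.03 in EE, under all 6 scalings. C6, the terminal complement component tested, was higher in EE than in E2 by 0.77 ± 0.17 (edgeR adjusted p = 7.41e-05).

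Markers of other cell types moved beside the members, and their part in the members' values was not tested. No gene had a count of 0 in any sample. Neutrophil markers, which matter for Cd24a, were higher in 11 of 13 cases in E2 and in 9 of 13 in EE, with 1 lower there. With TMM 13 and 11 were higher and 0 lower. Of all genes, 11.8% and 14.4% were higher on reference genes, and 134 and 136 of 457 with TMM. Their summed scaled counts, mostly S100a8 and S100a9, were 6814 to 10483 in placebo, 182759 to 207201 in E2 and 81420 to 93426 in EE. In EE against E2 neutrophil markers ran opposite to the members, with 12 of 13 lower (10 with TMM), 0 higher and a median of -1.06. Of all genes, 10.9% were lower in that comparison, and 23 of 457 with TMM.
B cell markers, the other known source of Cd24a, were lower in 9 of 9 cases in both estrogen groups. With TMM, where 104 and 123 of all 457 genes were lower, 4 and 6 of the B cell markers were. Their summed scaled counts were 41627 to 46301 in placebo, 23745 to 28389 in E2 and 21165 to 21884 in EE, and in EE against E2 0 of 9 passed by edgeR (3 at an unadjusted p under 0.05, 0 with TMM). T cell markers were lower in 12 of 12 cases and NK markers in 6 of 6 in both comparisons with placebo, where 62.6% and 65.9% of all genes were lower. With TMM 11 and 12 T cell markers and 5 and 5 NK markers were lower, where 104 and 123 of all 457 genes were. Between EE and E2, 5 of 12 T cell markers (3 with TMM) and 1 of 6 NK markers (0 with TMM) were lower in EE. None of either were higher, and 10.9% of all genes were lower (23 of 457 with TMM).
The megakaryocyte and platelet list, 3 genes, moved the way the members did in EE against E2, with all 3 higher, where 5.03% of all genes were higher. Ppbp, a platelet chemokine, differed by 1.51 ± 0.15 and Itga2b, the platelet integrin chain, by 1.89 ± 0.21. Gp1bb, a chain of the platelet von Willebrand receptor, differed by 1.19 ± 0.34 on E2 counts of 24 and 17, close to background. The summed scaled counts of these genes were 248.0 to 324.6 in placebo, 571.9 to 747.8 in E2 and 1792 to 2073 in EE.
Of 6 red pulp macrophage markers, 0 passed between E2 and placebo by edgeR (0 at an unadjusted p under 0.05). With TMM, however, 6 were higher there, where 134 of all 457 genes were higher. In EE against placebo, 6 of 6 were higher (median 0.63), where 14.4% of all genes were higher. With TMM 6 were also higher in EE, where 136 of all 457 genes were. In EE against E2, 5 of 6 were higher (median 0.63), where 5.03% of all genes were higher. Their summed scaled counts were 9294 to 10322 in placebo, 9981 to 10157 in E2 and 15067 to 16941 in EE.

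**Figure D3:**
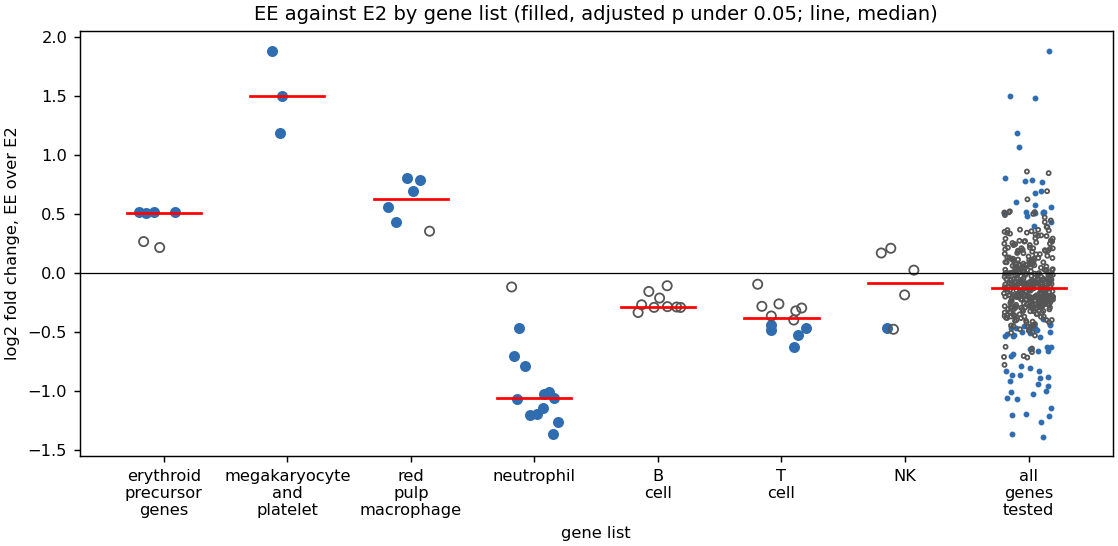
Log2 fold change of EE over E2 (y axis, reference-gene scale) for the genes of each list (x axis), with a point per gene, filled where the adjusted p was under 0.05, and a line at the list's median. The erythroid precursor genes have a median of 0.51, below that of the megakaryocyte and platelet genes (1.51) and above that of all genes tested (-0.12), and neutrophil markers have -1.06.

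**Figure D4:**
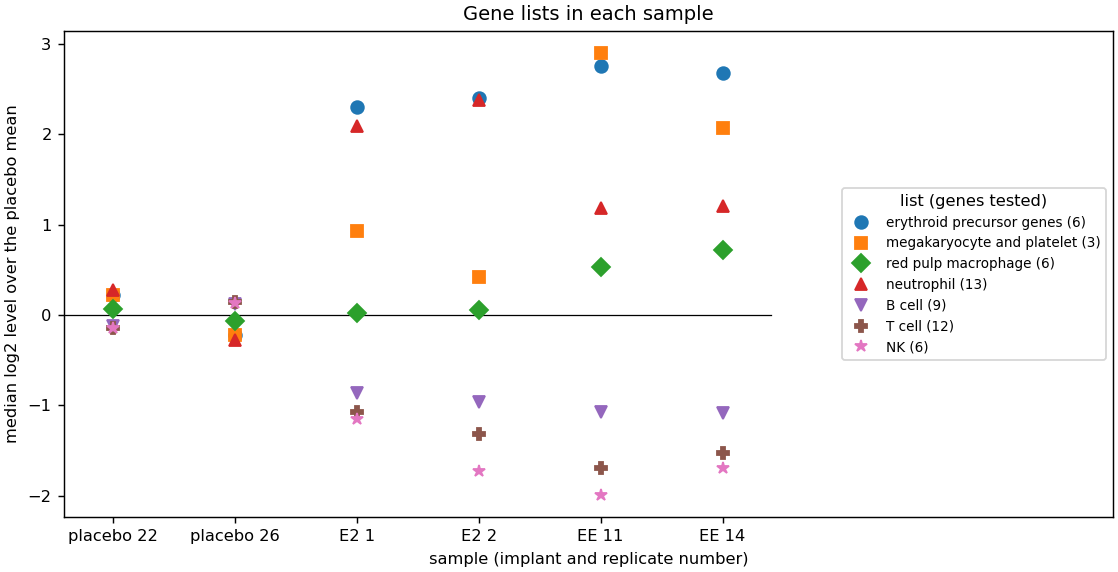
Median over the genes of each list of the log2 scaled count relative to the gene's placebo mean (y axis), in each of the 6 samples (x axis). The erythroid precursor genes lie at 2.30 and 2.40 in E2 and at 2.76 and 2.68 in EE, the neutrophil markers at 2.10 and 2.38 in E2 and near 1.2 in EE, and B cell, T cell and NK markers below 0 in all 4 estrogen samples.

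Outside the members, 196 genes had group means that differed by at least 1 on the log2 scale, and likeness to the members was measured as Pearson r over the 6 samples with the mean of the members' standardised log2 profiles. The most alike was Prim1, a subunit of the DNA primase that starts DNA replication (r = 0.998), with 255 and 214 counts in placebo, 529 and 585 in E2 and 720 and 682 in EE. It was lowest in placebo and highest in EE. Next came Il1rl1, the interleukin-33 receptor (r = 0.996), with 47 and 42, 160 and 187, and 219 and 230 counts in placebo, E2 and EE. Cd36 followed (r = 0.988), then the interleukin-1 receptor Il1r1 (r = 0.981) and the growth factor Tgfb3 (r = 0.98). Over 6 samples in 3 groups, high values of r come largely from the group means. In EE against E2 Prim1 was at 0.33 ± 0.16 (edgeR adjusted p = 0.164) and Il1rl1 at 0.37 ± 0.20 (edgeR adjusted p = 0.206), and neither passed.

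A total of 9 genes were called higher in all 3 comparisons, and 4 of them were members, Tal1, Abcb10, Icam4 and Cd24a. The other 5 were Itga2b, Ppbp, Clu, Ccl24 and Tnfrsf14. Since the comparisons share samples and the members were chosen on 2 of them, nothing is read from that count.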

How the data were processed

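Deposited values were whole-number barcode counts per probe, per the labels' description of a digital barcode assay, and steps before deposit are not given in the sources used here. Of 575 rows, 561 were genes and 14 spiked-in controls (6 taken as positive, with a mean of at least 20 counts, and 8 as negative), which stayed out of tests and held 2.82% to 4.71% of counts. A RefSeq table of GRCm38.p6 named 549 gene rows through unversioned transcript identifiers, and 12 stayed unnamed. Of the value columns, 0 lacked a sample. The fit was edgeR 4.0.16 in R 4.3.3, quasi-likelihood, group means over all 6 samples with 3 residual degrees of freedom, effective library sizes from the 12 named reference genes, and an adjusted p threshold of 0.05. Earlier work on these data used TMM. Reference genes were used here because TMM would undo a scaling that may have been made before deposit. An exact permutation test of 2 against 2 samples cannot go below p = 0.333. The script was tested on simulated data scaled on column totals, with changes only in EE. These settings differ from the main fit, and nothing is read from that test here. Alternatives included DESeq2 1.42.0 and limma 3.58.1. Named genes were the members, Alas1, the platelet genes and the 5 genes most like the members. Each list added its counts and up to 4 genes of lowest p in EE against E2. Some genes are named only to say what a list held or lacked. Any other gene outside this rule is said to be chosen after its values were seen. Members and lists were chosen with earlier results of these data known.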

Additional observations from a re-analysis of the deposited data

How the results depend on the processing

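All 208 values of the members over placebo under the alternatives kept their direction, from 0.83 to 4.14 on the log2 scale. The number of genes called fell from 340 to 200 (E2 against placebo), from 367 to 227 (EE against placebo) and from 73 to 48 (EE against E2) with DESeq2. In EE against E2 it was 127 on positive controls, 33 with limma at a pseudocount of 1, and from 25 to 102 when a sample was left out. The split of called genes, 23 higher and 50 lower in EE against E2, became 34 and 23 with TMM, 10 and 117 on positive controls, and 81 and 18 on column totals. In E2 against placebo 54 and 286 became 134 and 104 with TMM, and in EE against placebo 66 and 301 became 136 and 123. On column totals 102 were higher and 217 lower in EE against placebo. The members called higher in EE against E2, 4 on reference genes, were 0 on positive controls and with limma at a pseudocount of 1, 1 at a pseudocount of 10, 3 with TMM or DESeq2 and from 0 to 4 when a sample was left out. The adjusted p ranged from 8.024e-05 to 0.2132 for Tal1, from 0.0001446 to 0.2979 for Abcb10, from 0.0004309 to 0.2841 for Cd24a and from 0.0006955 to 0.5369 for Icam4. Tfrc turned to -0.014 on positive controls and passed on column totals (0.48, adjusted p = 0.0151), and Cd59b turned to -0.10 without E2 replicate 1 (-0.10 to 0.27 when a sample was left out). A mean of at least 50 counts, or leaving out E2 replicate 2, EE replicate 11 or EE replicate 14, took Cd59b below the filter. The causes were not tested. No paired analysis was possible because the groups share no replicate numbers. Counts near background limit Cd59b.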
